A study of Caenorhabditis elegans with 8 samples.

Results

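Tubulins are the building blocks of microtubules, the polymers that form the mitotic spindle, the tracks of motor proteins and the core of cilia. An alpha-tubulin and a beta-tubulin join into the dimer that polymerises, and gamma-tubulin sits in ring complexes that start new microtubules at centrosomes and other sites. Caenorhabditis elegans carries several genes for alpha-tubulin and beta-tubulin, some used in dividing embryonic cells and others in specialised cells such as neurons. The tubulin genes described here are 10 genes picked by sequence name from a table of RNA polymerase II calls, out of 19983 protein-coding genes in the gene table used for names and 46926 genes of all kinds. A first group of 5 holds genes of the early embryo, namely the alpha-tubulin genes tba-1 (F26E4.8) and tba-2 (C47B2.3), the beta-tubulin genes tbb-1 (K01G5.7) and tbb-2 (C36E8.5), and the gamma-tubulin gene tbg-1 (F58A4.8). The other group of 5 was taken as tissue-specific, namely tba-4 (F44F4.11), tbb-4 (B0272.1), tbb-6 (T04H1.9), mec-7 (ZK154.3) and mec-12 (C44B11.3).

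The values come from chromatin immunoprecipitation and sequencing (ChIP-seq) of AMA-1, which is the catalytic large subunit of RNA polymerase II, in embryos of strain KW2309 at the 1-cell to 350-cell stage. The embryos either came from the sig-7 RNAi condition or were controls with L4440, the empty RNAi vector. In both conditions they were freed from adult worms by bleaching and fixed with formaldehyde. The product of sig-7 is a cyclophilin of the nucleus that also has an RNA-binding domain. There were 2 AMA-1 ChIP libraries and 2 input libraries from sig-7(RNAi) embryos, and 2 of each kind from control embryos. The growth notes give 72 hours of growth from synchronized first-stage (L1) larvae. The labels do not say what KW2309 carries, how long RNAi lasted or whether replicates are separate worm cultures. The embryos were whole and of mixed stages, so a call does not tell in which cells the polymerase lay.

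Each gene has 1 call per condition. A call of 1 means that a peak covered the gene, by at least 250 bp or 45% of its length, in both ChIP replicates, and 0 means that this held in at most 1 of them. The table has no value per library, peak height, count or position, so its depth is unknown, no error between replicates can be given and no test of a single gene is possible. Of the 8922 genes listed, 0 had a call of 0 in both conditions, and a gene that is not listed is counted here as called in neither. Such a gene may still have had a peak in 1 replicate of either condition. The targeted gene sig-7 (F39H2.2) had a call of 1 in sig-7(RNAi) embryos and 0 in control embryos. A polymerase call does not measure the transcript, so it does not check the knockdown.

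All 5 genes of the early embryo were called in both conditions, and all 5 tissue-specific genes were called in neither. Among the 10 tubulin genes, 5 were thus called in sig-7(RNAi) embryos and the same 5 in control embryos. Over all protein-coding genes, 23.9% were called in sig-7(RNAi) embryos and 22.8% in control embryos, and 16.8% were called in both. No tubulin gene of the 10 was called in a single condition, where the background was 7.05% for sig-7(RNAi) only and 6.03% for control only. A count of 0 in 10 genes lies near these low backgrounds. The share called in neither condition was 70.1% over all protein-coding genes. The 10 genes were chosen with earlier results of these data known, so the split between the groups is not an independent outcome.

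**Figure D1:**
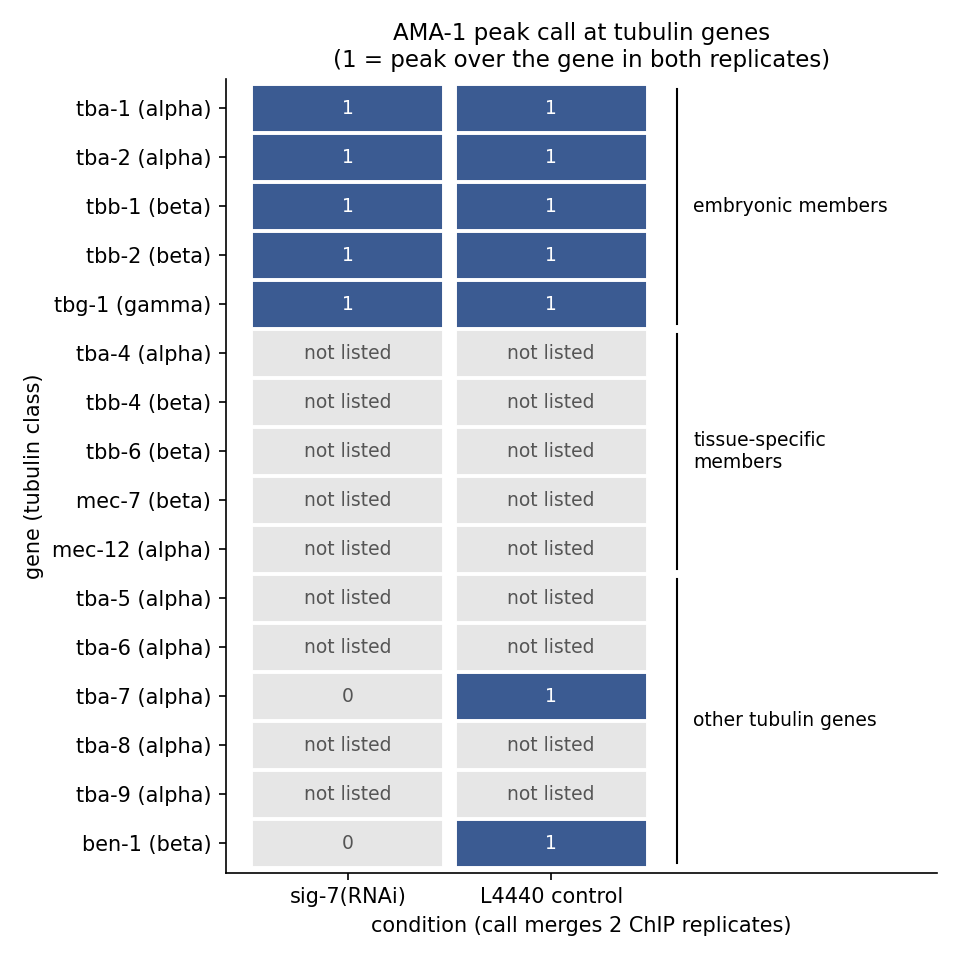
AMA-1 calls of the 10 tubulin genes and of the other 6 tubulin genes of the gene table (rows), in sig-7(RNAi) embryos and in L4440 control embryos (columns). A dark tile is a call of 1, a pale tile a call of 0 or a gene that is not listed; the 5 embryonic genes are dark in both columns, and tba-7 and ben-1 only in the control column.

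Among the alpha-tubulin genes, tba-1 had a call of 1 in sig-7(RNAi) embryos and 1 in control embryos. tba-2 likewise had 1 in sig-7(RNAi) embryos and 1 in control embryos. These genes encode the main alpha-tubulins of the early embryonic spindle. tba-4, an alpha-tubulin gene of somatic cells, was not listed, and neither was mec-12. MEC-12 is the alpha-tubulin of the touch receptor neurons, the mechanosensory cells that sense gentle touch, and it is known for acetylation of a lysine on the inside of the microtubule.

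Among the beta-tubulin genes, tbb-1 and tbb-2 each had a call of 1 in sig-7(RNAi) embryos and 1 in control embryos. They encode the partners of TBA-1 and TBA-2 in the early embryo. tbb-4, a beta-tubulin gene of ciliated sensory neurons, was not listed. tbb-6, which encodes a divergent beta-tubulin, was not listed either. The same held for mec-7, the beta-tubulin gene whose product pairs with MEC-12 in the large microtubules of touch receptor neurons. The gamma-tubulin gene tbg-1 had a call of 1 in sig-7(RNAi) embryos and 1 in control embryos. In all, 3360 protein-coding genes, the called tubulin genes included, have this pair of calls, so the calls give no closer match between genes. Tubulin genes of a class have similar coding sequences, and the sources used here do not say how reads that match several copies were treated, so the call of a single copy is uncertain.

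Of the other 6 tubulin genes, 2 were called in control only (33.3%, beside 6.03% over all protein-coding genes) and 0 in sig-7(RNAi) only (beside 7.05%). tba-7 (T28D6.2), an alpha-tubulin gene, had a call of 0 in sig-7(RNAi) embryos and 1 in control embryos. ben-1 (C54C6.2), the beta-tubulin gene through which benzimidazole drugs act on the worm, also had 0 in sig-7(RNAi) embryos and 1 in control embryos. The alpha-tubulin genes tba-5 (F16D3.1), tba-6 (F32H2.9), tba-8 (ZK899.4) and tba-9 (F40F4.5) were not listed. tba-5, tba-6 and tba-9 are known for expression in ciliated sensory neurons. Taken over all 16 tubulin genes, 5 were called in sig-7(RNAi) embryos and 7 in control embryos. By class, 2 of 9 alpha-tubulin genes were called in sig-7(RNAi) embryos and 3 of 9 in control embryos. For beta-tubulin the numbers were 2 of 6 in sig-7(RNAi) embryos and 3 of 6 in control embryos. Beside the background of 23.9% in sig-7(RNAi) embryos and 22.8% in control embryos, the share was 31.2% and 43.8% over all 16 genes, 22.2% and 33.3% for alpha-tubulin, and 33.3% and 50% for beta-tubulin. The alpha-tubulin share in sig-7(RNAi) embryos was thus near the background. A call of 0 can rest on a single replicate that missed the peak threshold, so neither gene can be said to have lost the polymerase.

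Broad peaks can cover several adjacent genes, so the calls of neighbours were read along the order of protein-coding genes, 4 on either side. All 5 called members adjoined a protein-coding gene with a call of 1 in both conditions, as did 82% of the 3360 protein-coding genes with this pair of calls. tba-1 lay between drsh-1, the gene of the microRNA-processing enzyme Drosha, and cox-5B, a gene of cytochrome c oxidase, both called in both conditions. Next to these, hrdl-1 was called in sig-7(RNAi) only and gpx-1, a glutathione peroxidase gene, in control only. tba-2 had C47B2.2, called in both conditions, on one side and the proteasome gene pbs-2, called in sig-7(RNAi) only, on the other. Beyond pbs-2 lay the translation factor gene eif-6, called in sig-7(RNAi) only, and gale-1, called in both.

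The beta-tubulin gene tbb-1 lay in a stretch of 12 consecutive protein-coding genes called in both conditions, where the median stretch of such genes was 3. This stretch includes ran-1, the gene of the GTPase Ran that acts in nuclear transport and spindle assembly, and dkc-1, the gene of a pseudouridine synthase. The stretches of tba-1, tba-2 and tbb-2 held 3 genes each and that of tbg-1 held 4. tbb-2 adjoined C36E8.4, called in both conditions, and snpc-3.4, called in sig-7(RNAi) only. tbg-1 adjoined hlh-11, a transcription factor gene, and rpac-19, a gene of a subunit shared by RNA polymerases I and III, both called in both conditions. Beyond hlh-11, calls in sig-7(RNAi) only lay on hcp-3 (the centromeric histone H3 variant), F58A4.6 and pri-1 (a DNA primase subunit).

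Of the 40 protein-coding genes within 4 places of the 5 called members, 19 were called in both conditions, 10 in sig-7(RNAi) only, 2 in control only and 9 in neither. The share called in at least 1 condition was 77.5%, against 52.6% around all genes called in both conditions. Each called member had 5 to 7 called genes among its 8 neighbours, where the median was 4 around genes of the same calls. The genes called in sig-7(RNAi) only lay around 4 of the 5 members, with 3 near tba-2, 3 near tbg-1, 2 near tba-1, 2 near tbb-2 and 0 near tbb-1. Around all genes called in both conditions, 10.1% of neighbours were called in sig-7(RNAi) only and 6.18% in control only. Neighbours can share a peak and cannot be taken as independent, so these counts describe 5 places in the genome and were not tested.

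**Figure D2:**
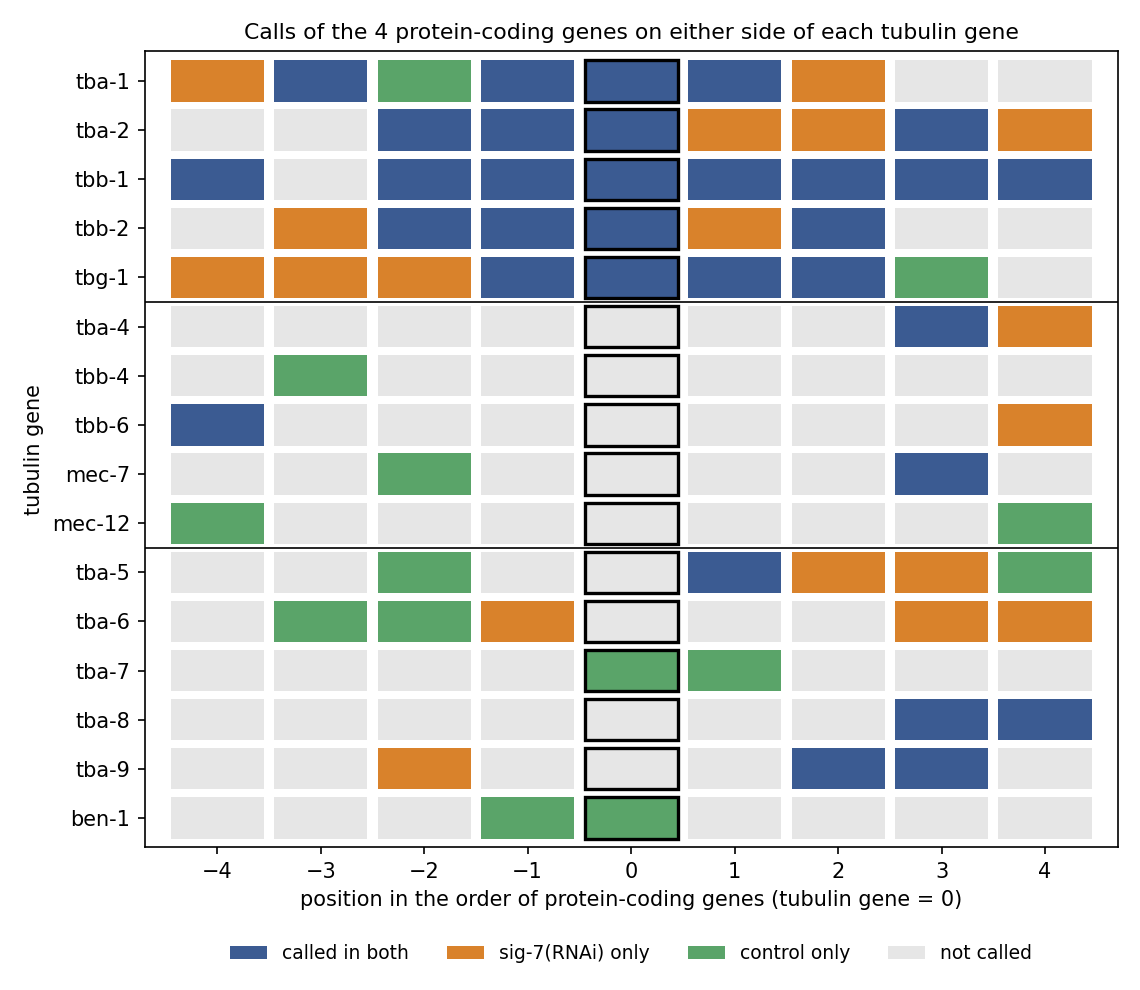
Calls of the 4 protein-coding genes on either side of each of the 16 tubulin genes, in gene order (horizontal axis, tubulin gene at 0 with a black outline). The 5 embryonic genes lie among called genes (31 of 40 neighbours), and the 5 tissue-specific genes, in the middle block, among genes that are mostly not called (9 of 40 neighbours called).

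Around the 5 tissue-specific genes the calls were sparser. Of their 40 neighbours, 3 were called in both conditions, 2 in sig-7(RNAi) only, 4 in control only and 31 in neither. The share called in at least 1 condition was 22.5%, close to the 22.2% around all protein-coding genes called in neither. mec-7 was the nearest of the 5 to a called gene, 2 genes away from ref-2, a zinc finger transcription factor gene called in control only. tba-4 lay 3 genes from metr-1, the methionine synthase gene, called in both conditions. tbb-4 lay 3 genes from the filamin gene fln-2, called in control only. tbb-6 and mec-12 each lay 4 genes from the nearest called gene, where the median over uncalled genes was 3. None of these 5 genes adjoined a called protein-coding gene, which 28% of uncalled protein-coding genes did.

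In the order of protein-coding genes, the tubulin genes called in control only each adjoined a gene of the same calls. With genes of every kind in the order, this held for ben-1 and not for tba-7. tba-7 lay beside dpy-18, a gene of the prolyl hydroxylase that modifies collagen, and ben-1 beside cfap-20, a gene of a ciliary protein. The other 7 neighbours of tba-7 and the other 7 of ben-1 were called in neither condition. Of all protein-coding genes called in control only, 53.6% had an adjacent gene with the same calls. Since no peak positions are given, it cannot be told whether a single peak covered the tubulin gene and its neighbour or each had its own. The uncalled tba-5 lay 2 places from tbcd-1, a gene of tubulin folding called in sig-7(RNAi) only.

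Genes that act on tubulin and microtubules were taken as 5 lists of 82 genes, chosen with earlier results of these data known. Of these, 46 were called in sig-7(RNAi) embryos and 45 in control embryos (56.1% and 54.9%, beside the 23.9% and 22.8% over all protein-coding genes). Of the 82, 38 had calls in both conditions, 8 in sig-7(RNAi) only and 7 in control only. The shares called in a single condition were 9.76% for sig-7(RNAi) only and 8.54% for control only, beside 7.05% and 6.03% over all protein-coding genes. Without called genes that adjoin a protein-coding gene of the same calls, 42 genes were left. Of these, 6 were called in sig-7(RNAi) only and 1 in control only. This step removes genes by their own calls, and no share over all protein-coding genes was taken under it. The change is therefore not read as a trait of microtubule genes.

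Folding of tubulin begins in a chaperonin to which prefoldin brings the new chain, and cofactors A to E then assemble the dimer. In this list of 12 genes, 7 were called in sig-7(RNAi) embryos and 6 in control embryos. These shares were 58.3% and 50%, beside 23.9% and 22.8% over all protein-coding genes. tbca-1, tbcc-1 and tbce-1, genes of cofactors A, C and E, and evl-20, the gene of an Arl2 GTPase, were called in both conditions. The cofactor D gene tbcd-1 was the gene called in sig-7(RNAi) only (8.33% of the list, beside 7.05% over all protein-coding genes). tbcb-1 (cofactor B) and the prefoldin genes pfd-1, pfd-4 and pfd-5 were among the 5 called in neither. Other prefoldin genes, pfd-2 and pfd-3, named after their calls were seen, were called in both conditions.

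The nucleation list, of genes that start and anchor microtubules, had 7 of 10 called in sig-7(RNAi) embryos and 7 in control embryos. Each share was 70%, beside 23.9% and 22.8% over all protein-coding genes. Those called in both conditions included gip-2 and gtap-1, of the gamma-tubulin complex, and spd-2 and spd-5, of the centrosomal scaffold on which TBG-1 gathers. gip-1, a core gene of the same complex, was called in sig-7(RNAi) only. ptrn-1, the gene of the minus-end protein Patronin, was called in control only. Each of these single-condition calls is 10% of the list, beside backgrounds of 7.05% for sig-7(RNAi) only and 6.03% for control only. mzt-1 and gtap-2 were called in neither.

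Regulators of microtubule growth and severing had 12 of 23 genes called in sig-7(RNAi) embryos and 13 in control embryos. These shares were 52.2% and 56.5%, beside 23.9% and 22.8% over all protein-coding genes. zyg-9 (a polymerase of the XMAP215 family), klp-7 (a depolymerising kinesin), ebp-1 (a plus-end protein) and cls-2 (a CLASP protein) were among the 9 called in both conditions. The 3 called in sig-7(RNAi) only were mei-2, ebp-2 and cls-1. The 4 called in control only were mei-1, the spastin gene spas-1, cls-3 and maph-1.1. Single-condition shares were 13% for sig-7(RNAi) only and 17.4% for control only, beside 7.05% and 6.03% over all protein-coding genes. MEI-1 and MEI-2 are the catalytic and regulatory subunits of katanin, which severs microtubules in the meiotic spindle, and their genes had opposite calls. tac-1, ptl-1 (the tau-like gene), ebp-3 and maph-1.2 were among the 7 called in neither.

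Motor genes had 15 of 26 called in sig-7(RNAi) embryos and 14 in control embryos, and 1 of the 26, klp-10, is a pseudogene in the gene table. The shares were 57.7% and 53.8%, beside 23.9% and 22.8% over all protein-coding genes. The dynein and dynactin genes dhc-1, dli-1, dlc-1 and dnc-1 were among the 12 called in both conditions. The kinesin genes called in sig-7(RNAi) only were unc-104, klp-6 and klp-16, and those called in control only were klp-3 and klp-11. They make up 11.5% and 7.69% of the list, beside 7.05% and 6.03% over all protein-coding genes. klp-16 has a near-identical copy, klp-15, which was called in neither, so its call is uncertain. The same limit holds for any other gene of the lists that has a close copy. dnc-2, klc-1, osm-3 and klp-20 were among the 9 called in neither.

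Enzymes that modify tubulin had 5 of 11 genes called in both conditions, 0 in a single condition and 6 in neither. The shares were 45.5% in both and 54.5% in neither, beside 16.8% and 70.1% over all protein-coding genes. A count of 0 in 11 genes lies near the single-condition backgrounds of 7.05% and 6.03%. mec-17, the gene of the acetyltransferase that acts on MEC-12, was called in both conditions, and so were the glutamylase genes ttll-4 and ttll-5 and the deglutamylase gene ccpp-6. atat-2, ttll-9, ttll-11 and ttll-12 were among those called in neither. The gene of its substrate, mec-12, was called in neither condition.

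**Figure D3:**
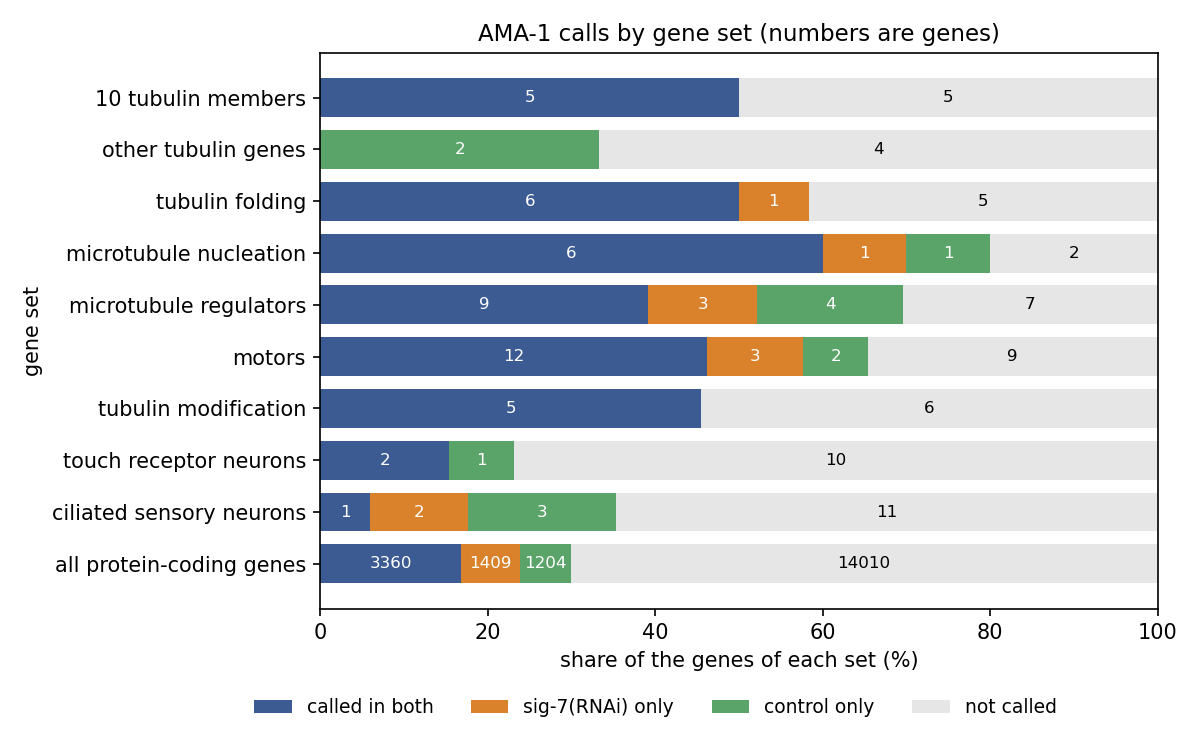
Share of the genes of each set (horizontal axis, %) called in both conditions, in sig-7(RNAi) only, in control only or in neither, with the number of genes in each part of a bar. The lowest bar is the background of 19983 protein-coding genes; the 10 tubulin genes have 5 called in both conditions and 5 in neither.

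Genes of the cells that use mec-7, mec-12 and tbb-4 were also read, and no such list was taken for tba-4 or tbb-6. Of 13 genes of touch receptor neurons, 2 were called in sig-7(RNAi) embryos and 3 in control embryos. These shares, 15.4% and 23.1%, stand beside 23.9% and 22.8% over all protein-coding genes. mec-17, which is also in the tubulin modification list, and mec-15 were called in both conditions. mec-4, a gene of the touch channel, was called in control only. The 15.4% called in both and 7.69% in control only stand beside 16.8% and 6.03% over all protein-coding genes. The selector genes unc-86 and mec-3, which set the fate of these neurons, and mec-1 and mec-2 were among the 10 called in neither. mec-7 and mec-12 had the same pair of calls as these 10 genes, which is also that of 70.1% of all protein-coding genes.

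Of 17 genes of ciliated sensory neurons, where tbb-4 is used, 3 were called in sig-7(RNAi) embryos and 4 in control embryos. These shares, 17.6% and 23.5%, stand beside 23.9% and 22.8% over all protein-coding genes. The list shares 1 gene, osm-3, with the motor list. The kinase gene dyf-5 was called in both conditions. In sig-7(RNAi) only, the intraflagellar transport genes osm-1 and ifta-1 had calls. The RFX transcription factor gene daf-19 and the intraflagellar transport genes osm-6 and dyf-2 were called in control only. By category, 5.88% were called in both, 11.8% in sig-7(RNAi) only and 17.6% in control only, beside backgrounds of 16.8%, 7.05% and 6.03%. che-2, che-3, che-11 and che-13 were among the 11 called in neither. For the labelled stage, pie-1, pos-1, pal-1 and nhr-2 were among the 6 of 12 early embryo and germline genes called in both conditions. mex-1 was called in sig-7(RNAi) only, and nos-2, pes-10, med-1 and end-1 were among the 5 called in neither. Of this list, 50% were called in both, 8.33% in sig-7(RNAi) only and 41.7% in neither, beside 16.8%, 7.05% and 70.1% over all protein-coding genes.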

How the data were processed

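Embryos were profiled by AMA-1 ChIP-seq in 8 libraries, 4 ChIP and 4 input. Per the file headers, the authors called broad peaks with MACS2 (cutoff 0.01) and deposited a 0 or 1 call per gene and condition that merges both replicates. This call is a category, not a signal. The submitters' processing notes name Bowtie 1.0.1 and build ce10. The version of MACS2, the annotation and how inputs were used are not given in the sources.

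Names in the table were paired, ignoring case, with RefSeq locus tags of assembly WBcel235 (8824 of 8922 matched), which supplied names, kinds of gene and gene order alone, since the build differs. Counts, shares, stretches of equal calls and neighbours were computed with Python 3.11.15 and pandas 2.3.3, and the stretch and neighbour steps were tested on simulated calls. No test was run, as the calls hold no replicate error. The 10 members and all lists were chosen with earlier results of these data known. All tubulin genes are named, and from the lists every gene called in a single condition and up to 4 each of those called in both or in neither, in list order. Alternatives were case-sensitive matching, all 16 tubulin genes, leaving out genes beside a gene of the same calls, and other backgrounds.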

Additional observations from a re-analysis of the deposited data

How the results depend on the processing

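The 5 calls in sig-7(RNAi) embryos and the 5 in control embryos were the same with case kept in the names. With all 16 tubulin genes, 2 had control-only calls in place of 0. Leaving out called genes with an adjacent protein-coding gene of the same calls left 0 called members in sig-7(RNAi), in control and in both. Leaving out those beside a gene of any kind with the same calls also left 0. All 5 called members adjoined such a gene in either order, so both settings removed them. In the microtubule lists the first of these settings left 12 genes in sig-7(RNAi), 7 in control, 6 in both, 6 in sig-7(RNAi) only and 1 in control only. With neighbours of any kind it left 14 in sig-7(RNAi), 10 in control, 9 in both, 5 in sig-7(RNAi) only and 1 in control only. These counts are out of 42 and 44 genes in that order, since the settings remove genes by their own calls. Settings for the microtubule lists, and neighbours of any kind, were chosen after seeing the data. Over all 46926 genes of the gene table, the background shares were 13.9% for sig-7(RNAi), 14.4% for control, 4.4% for sig-7(RNAi) only and 4.88% for control only. Over the 8922 listed genes they were 74%, 76.5%, 23.5% and 26% in the same order, since every listed gene has a call. No paired analysis was possible because each call already combines its 2 replicates, and for the same reason no replicate could be left out. Depth is unknown, and a call can change when 1 replicate crosses the peak threshold.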
